A study of Mus musculus with 7 samples.

Results

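Complex I (NADH:ubiquinone oxidoreductase) is the entry point for NADH electrons into the mitochondrial respiratory chain. It has a matrix arm, which carries the flavin and the iron-sulfur clusters, and a membrane arm, which pumps protons. The core subunits that do the catalysis are encoded partly in the nucleus and partly in the mitochondrial genome, and a larger set of nuclear accessory subunits surrounds them. Assembly factors, some of them named Ndufaf, join the parts and are absent from the finished enzyme. In the intestine, absorptive enterocytes of the villus depend heavily on oxidative metabolism.

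The genes described here are the rows of the deposited table whose symbol starts with Nduf and whose biotype is protein-coding, 51 of the 46671 genes listed. They comprise 37 structural subunits, 8 Ndufaf assembly factors and 6 genes that carry the name but belong elsewhere. These 6 are Ndufa4, now assigned to cytochrome c oxidase, its relative Ndufa4l2, and the gene copies Ndufb4b, Ndufb4c, Ndufs6b and Ndufab1-ps. The choice used names and biotype only, no measured value.

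The 4 cKO libraries came from BALB/C mice in which MST3, a STE20-family kinase encoded by Stk24, was knocked out in intestinal epithelial cells, and the 3 Ctrl libraries from WT mice of the same strain. All mice were 8 weeks old. Sample treatment labels say that no drug was given to either group, whereas the series design names AOM and DSS, a carcinogen and a colitis agent. The labels give neither the Cre driver nor whether each library is a separate animal, so p-values refer only to differences among these libraries, which may be technical. RNA was taken from epithelium labelled as colorectum.

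Gene-assigned reads numbered between 14659708 and 19659622 per library. Stk24 checked the labels. It stood between 2.92 and 3.85 FPKM in cKO and between 19.4 and 21.0 FPKM in Ctrl (exact 2-sided permutation p = 0.0571, the smallest that 4 against 3 libraries allow). The large-bowel label did not match the markers, since Hoxd13 was at 0 in every library and Car1 was read in 1 Ctrl library only, at 0.0705 FPKM. The 6 large-bowel markers summed to between 7.83 and 22.6 FPKM in cKO and between 8.70 and 18.5 FPKM in Ctrl. The 12 small-intestine markers summed to between 21868 and 39549 FPKM in cKO and between 31585 and 38052 FPKM in Ctrl. Muscle, endothelial and glial markers each summed to under 1 FPKM in every library. Markers of T cells summed to between 40.4 and 108.8 FPKM in cKO and between 70.4 and 146.2 FPKM in Ctrl, with 0 of 5 higher on average in cKO. Those of B and plasma cells summed to between 35.9 and 147 FPKM in cKO and between 17.7 and 52.5 FPKM in Ctrl, with 5 of 5 higher on average in cKO. Sums reached 7.91 FPKM in cKO and 6.16 FPKM in Ctrl for fibroblasts, 2.91 and 2.59 FPKM for macrophages, and 14.04 and 17.9 FPKM for blood cells. The part of these cells in the Nduf values was not tested.

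Values are FPKM, that is reads scaled by gene length and library size, and differences are cKO minus Ctrl on the scale log2(FPKM + 0.5). Of the 51 genes, 50 passed the filter of a mean of at least 0.5 FPKM and entered the limma fit of 13057 genes. Ndufa4l2 did not pass. It had at most 1 read in any cKO library and at most 6 reads in any Ctrl library. At least 100 reads lay behind the value in every library for 45 of the 50.

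No Nduf gene passed the test, with a lowest limma adjusted p of 0.367, and over all genes 0.0306% passed. The direction of the differences was nevertheless uneven. The log2 difference was below 0 for 39 of the 50 tested Nduf genes, with a median of -0.16, against 51.3% of all tested genes, whose median was -0.0077. At an unadjusted limma p under 0.05, 14 Nduf genes were lower in cKO and 0 were higher, where the whole table had 4.73% lower and 4.24% higher. All 4 cKO libraries lay below all 3 Ctrl libraries for 13 Nduf genes and above them for 0, against 4.51% and 5.62% of all tested genes. The count of 14 fell to 8 without Ctrl replicate 1, 8 without Ctrl replicate 2, 9 without cKO replicate 2 and 8 once each library's trend with gene length had been taken out. The median came closer to 0 under other scalings, at -0.079 after rescaling to a common sum (TPM) and -0.076 after quantile normalization, where 32 and 34 genes were below 0. Under these scalings the median over all tested genes was 0.070 and 0.021. In bulk tissue, fewer cells of a type and less RNA per cell cannot be told apart.

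**Figure D1:**
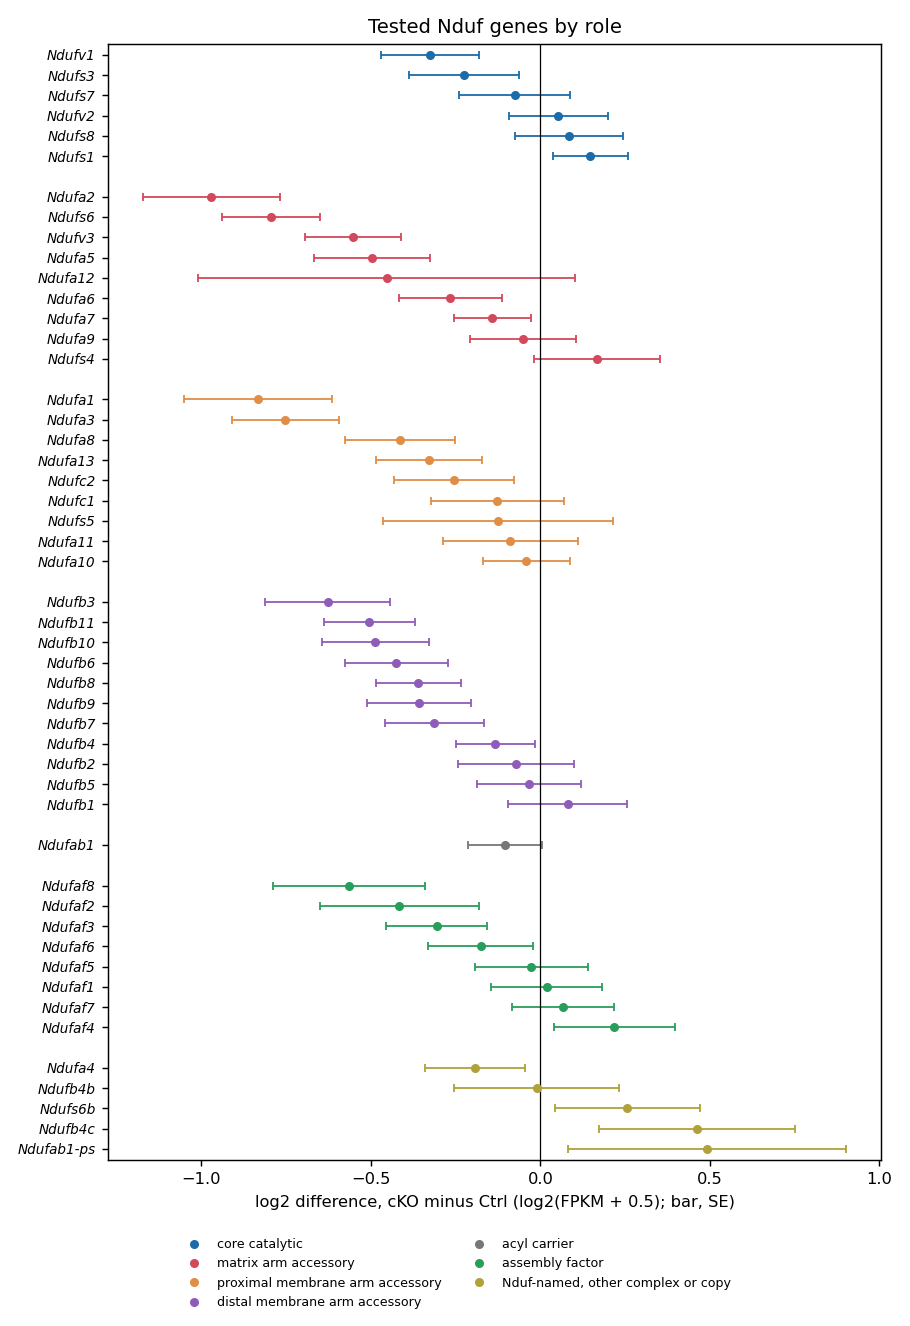
Log2 difference (cKO minus Ctrl, x axis) of tested Nduf genes (y axis; 1 of the 50 is not drawn), grouped by role, with the limma standard error as bars. The core catalytic subunits straddle 0, between -0.33 and 0.15, whereas 28 of the 30 accessory subunits, Ndufab1 included, lie left of 0.

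The nuclear core subunits form the catalytic path from NADH to ubiquinone, and their levels overlapped between the groups in all but 1 case. Their median log2 difference was -0.076, with 4 of 7 below 0. The direction turned under other scalings, where the median was 0.057 after removal of the length trend (3 of 7 below 0), 0.037 after quantile normalization and 0.012 after TPM rescaling. Ndufv1 binds NADH and the flavin. It stood at 115, 92.6, 116 and 123 FPKM in cKO, against 156, 139 and 125 FPKM in Ctrl. The groups did not overlap, but the gap between cKO replicate 4 and Ctrl replicate 3 was small, and the difference of -0.33 (SE 0.14) did not pass (limma adjusted p = 0.557).

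Ndufs3, a subunit of the module that hands electrons to ubiquinone, stood at 87.4, 74.8, 95.9 and 97.1 FPKM in cKO, against 122, 108 and 84.3 FPKM in Ctrl. Here Ctrl replicate 3 lay within the cKO range. Ndufs1, which carries iron-sulfur clusters, was at 38.8 ± 2.20 FPKM in cKO (SD, n = 4) and 35.04 ± 3.61 FPKM in Ctrl (SD, n = 3). Ndufs7, Ndufs8 and Ndufv2 had log2 differences between -0.076 for Ndufs7 and 0.085 for Ndufs8.

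The accessory subunits of the matrix arm included the 2 Nduf genes with the smallest p. Of 9 such genes, 8 were below 0, with a median of -0.45 and 4 at an unadjusted limma p under 0.05. Of the 9, 7 were below 0 after removal of the length trend, with a median of -0.32. Ndufs6, a zinc-binding subunit at the base of the NADH-oxidising module, stood at 79.7, 56.3, 70.1 and 65.9 FPKM in cKO, against 130.1, 109 and 114 FPKM in Ctrl. Every cKO library was well below the lowest Ctrl library, and the cKO mean was 57.7% of the Ctrl mean. The log2 difference was -0.80 (SE 0.14, limma adjusted p = 0.367). The difference kept its sign under all 22 alternatives, between -0.87 and -0.64, with adjusted p between 0.186 and 0.748.

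Ndufa2, a small subunit with a thioredoxin-like fold, stood at 100.03, 57.2, 74.5 and 70.7 FPKM in cKO, against 164, 155 and 122 FPKM in Ctrl. The groups were separate again, with cKO replicate 1 closest to Ctrl, and the cKO mean was 51.5% of the Ctrl mean. Its log2 difference of -0.97 (SE 0.20) was the lowest of the 50 and did not pass (limma adjusted p = 0.409). Ndufv3, an accessory subunit bound to the flavin-containing part, also had separate groups, at 28.6 ± 4.68 FPKM in cKO (SD, n = 4) and 41.8 ± 1.37 FPKM in Ctrl (SD, n = 3). Ndufa5 was at 83.8 ± 15.8 FPKM in cKO (SD, n = 4) and 118 ± 15.6 FPKM in Ctrl (SD, n = 3), with cKO replicate 4 above Ctrl replicate 3.

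The abundant Ndufa6 stood at 193, 181, 212 and 251 FPKM in cKO, against 238, 240.4 and 272 FPKM in Ctrl, so cKO replicate 4 reached into the Ctrl range. Ndufa7 and Ndufa9 had log2 differences of -0.14 and -0.051. The exception in direction was Ndufs4, whose loss causes mitochondrial encephalopathy in mice, at 51.3 ± 10.8 FPKM in cKO (SD, n = 4) and 45.2 ± 6.57 FPKM in Ctrl (SD, n = 3). It was highest in cKO replicates 3 and 4, at 60.6 and 60.7 FPKM.

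In the proximal membrane arm, next to the matrix arm, all 9 accessory subunits were below 0, with a median of -0.26, and 3 were at an unadjusted limma p under 0.05. After removal of the length trend 6 of the 9 were below 0, with a median of -0.103. Ndufa3, one of the smallest subunits, stood at 117, 109.8, 87.9 and 134 FPKM in cKO, against 178, 186 and 197 FPKM in Ctrl. No cKO library came near the Ctrl range, and the log2 difference was -0.75 (SE 0.16, limma adjusted p = 0.428).

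The X-linked Ndufa1, a subunit with a membrane-spanning helix that is needed for assembly, stood at 55.8, 30.0, 46.7 and 45.1 FPKM in cKO, against 65.4, 92.5 and 77.3 FPKM in Ctrl. Its groups were separate, with a cKO mean at 56.7% of the Ctrl mean and a log2 difference of -0.83 (SE 0.22, limma adjusted p = 0.475). Ndufa8 had separate groups as well, at 100.1 ± 17.7 FPKM in cKO (SD, n = 4) and 132 ± 7.95 FPKM in Ctrl (SD, n = 3). The remaining 6 ranged from -0.33 for Ndufa13, also known as GRIM-19, to -0.041 for Ndufa10, and their groups overlapped.

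The distal membrane arm holds the Ndufb subunits. Of 11 measured, 10 were below 0, with a median of -0.36, and 6 were at an unadjusted limma p under 0.05. With the length trend removed, 7 of the 11 were below 0, with a median of -0.21. Ndufb11, encoded on the X chromosome, stood at 90.7, 78.3, 68.3 and 87.9 FPKM in cKO, against 123, 110.4 and 111 FPKM in Ctrl, and the groups were separate. Its log2 difference was -0.50 (SE 0.13, limma adjusted p = 0.475).

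Ndufb3, at 60.9, 35.8, 49.6 and 55.4 FPKM in cKO and 79.9, 80.8 and 69.8 FPKM in Ctrl, had a log2 difference of -0.63 (SE 0.18, limma adjusted p = 0.511). The most abundant structural subunit, Ndufb9, stood at 237, 192, 235 and 273 FPKM in cKO, against 313, 286 and 296 FPKM in Ctrl. Ndufb10 and Ndufb8 likewise had no overlap, with log2 differences of -0.49 and -0.36, whereas Ndufb6, at -0.42, overlapped slightly. At the other end, Ndufb5, Ndufb2 and Ndufb1 lay between -0.071 and 0.081. Ndufb1, the shortest tested Nduf gene at 339 bases, stood at 77.7, 84.5, 106 and 102 FPKM in cKO, against 77.5, 77.1 and 109 FPKM in Ctrl.

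Ndufab1, the mitochondrial acyl carrier protein, sits in both arms and also serves fatty acid synthesis in the matrix. It stood at 47.9, 49.9, 55.3 and 57.3 FPKM in cKO, against 54.3, 58.6 and 56.4 FPKM in Ctrl. Its log2 difference was -0.104 (SE 0.11, limma adjusted p = 0.798), with cKO replicates 3 and 4 inside the Ctrl range.

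**Figure D2:**
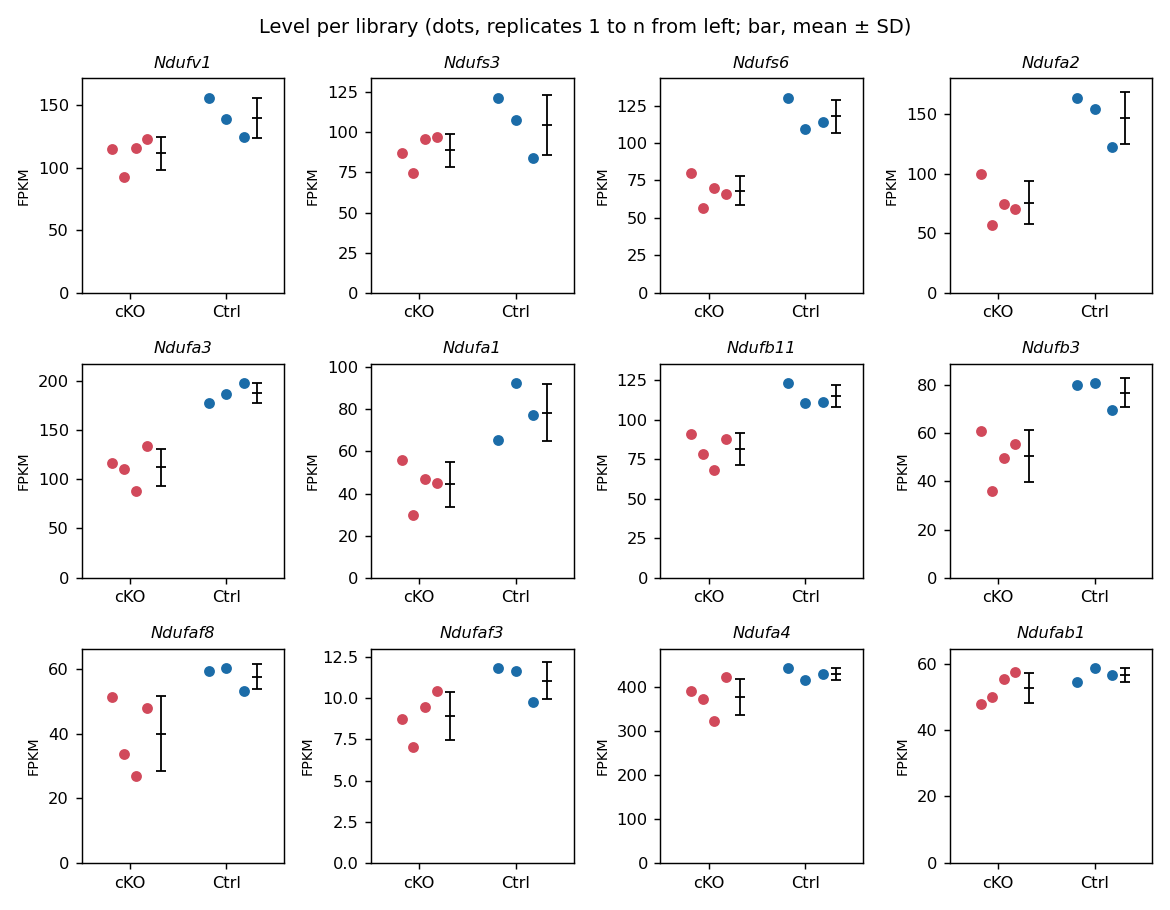
FPKM (y axis, from 0) in each cKO and Ctrl library for 12 Nduf genes, with mean and SD as bars. The cKO dots lie wholly below the Ctrl dots for Ndufs6, Ndufa2, Ndufa3, Ndufa1, Ndufb11, Ndufb3, Ndufaf8 and, by a narrow margin, Ndufv1, and overlap for the other 4.

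Promoter windows were searched for short motifs. RefSeq windows of 300 bases (GRCm38.p6, 250 before and 50 after the annotated start) matched 42 of the 51 genes. Windows for Ndufa2, Ndufa4l2, Ndufab1-ps, Ndufaf6, Ndufb4c, Ndufb9, Ndufs1 and Ndufs6b were among those not used here. Both strands were searched for 4 motifs of factors known to control respiratory genes: GCGCANGCG for NRF1, CCGGAAGT for ETS factors such as GABP, AAGATGGC for YY1 and TNAAGGTCA for estrogen-related receptors. None of these strings contains another. The NRF1 string was shortened from a longer one after the matches of the longer one had been seen, so its counts are a description chosen with values in view.

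The NRF1 string occurred in 10 of the 42 windows (23.8%), against 7.03% of the 27025 genes with a window and 15.2% of the 9500 of them that were tested. The YY1 string occurred in 8 windows (19.0%), against 3.19% of all and 5.47% of tested genes. The ETS string was found in 1 window, that of Ndufs3, against 9.39% of tested genes, and the receptor string in 1, that of Ndufb4, against 0.947%. Genes with and without the YY1 string had medians of -0.24 and -0.21. These matches are descriptions of letters and not of binding.

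The 2 windows shown are those of Ndufs6 and Ndufa3, the genes with the smallest p among those with a window. Printed are the 250 bases before the start, 5′ to 3′ on the strand of the gene, with the NRF1 string in capitals. They lie at chr13:73328483-73328732 on the minus strand for Ndufs6 and at chr7:3617123-3617372 on the plus strand for Ndufa3.
Ndufs6: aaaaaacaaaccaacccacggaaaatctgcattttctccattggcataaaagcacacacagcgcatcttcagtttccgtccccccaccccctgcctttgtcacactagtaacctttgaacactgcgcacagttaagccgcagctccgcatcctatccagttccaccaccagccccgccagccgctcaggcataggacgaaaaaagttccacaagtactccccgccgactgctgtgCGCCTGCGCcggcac
Ndufa3: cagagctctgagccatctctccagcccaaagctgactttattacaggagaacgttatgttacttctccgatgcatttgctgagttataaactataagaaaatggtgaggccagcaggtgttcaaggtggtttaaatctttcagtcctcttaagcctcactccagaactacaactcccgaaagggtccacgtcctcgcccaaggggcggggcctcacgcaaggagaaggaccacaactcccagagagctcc
In Ndufs6 the NRF1 string, read on the opposite strand, begins 15 bases before the start. The YY1 string lies just after the start in both genes, outside the stretch printed, beginning 33 bases downstream in Ndufs6 and 22 bases downstream in Ndufa3.

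Set side by side, the 30 accessory subunits had a median log2 difference of -0.32 and the 7 core subunits one of -0.076, a gap of -0.24. The gap was not tested, since the classes were drawn up with earlier results of these data known. After removal of the length trend 21 of the 30 accessory subunits were below 0, with a median of -0.18. The gap between accessory and core medians was -0.24 after removal of the length trend, -0.24 after quantile normalization and -0.25 after TPM rescaling. TPM rescaling scales all genes of a library alike, so it can hardly move a gap between medians. Leaving out a library moved the gap more, to -0.14 without cKO replicate 3. Of the 14 Nduf genes lower at an unadjusted limma p under 0.05, 13 were accessory subunits, 0 were core subunits and 1 was the assembly factor Ndufaf8. Core subunits had a median length of 1608 bases and accessory subunits one of 722 bases. The trend removed was fitted over all tested genes, whose log2 difference rose by 0.044 per doubling of length. Among the 37 structural subunits it rose by 0.15, and a relation with length remained after removal (Pearson r = 0.34). The removal thus did not set length aside between these classes, and subunits of like length were not compared.

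The assembly factors were far less abundant than the subunits they handle. Their median level was 7.77 FPKM, against 92.7 FPKM for the structural subunits, both averaged over the 7 libraries. Of the 8, 7 lay below the least abundant structural subunit, Ndufa12, at 31.4 FPKM. The exception was Ndufaf8, a small protein known from human cells as a partner of NDUFAF5.

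Ndufaf8 stood at 51.5, 33.6, 27.0 and 48.0 FPKM in cKO, against 59.4, 60.3 and 53.2 FPKM in Ctrl. The groups were separate only narrowly, between cKO replicate 1 and Ctrl replicate 3. The log2 difference was -0.56 (SE 0.22, limma adjusted p = 0.542). Ndufaf3, which acts early in building the ubiquinone module, stood at 8.72, 7.01, 9.47 and 10.4 FPKM in cKO, against 11.8, 11.6 and 9.75 FPKM in Ctrl. Here cKO replicate 4 exceeded Ctrl replicate 3, and the difference of -0.31 (SE 0.15) did not pass (limma adjusted p = 0.586).

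Ndufaf4, the partner of Ndufaf3, went the other way, at 8.48 ± 1.89 FPKM in cKO (SD, n = 4) and 7.13 ± 0.910 FPKM in Ctrl (SD, n = 3). Ndufaf2, a relative of the subunit gene Ndufa12, was at 6.93 ± 2.42 FPKM in cKO (SD, n = 4) and 9.07 ± 0.867 FPKM in Ctrl (SD, n = 3). Ndufaf6, the longest Nduf gene at 5036 bases, stood at 1.64, 1.61, 1.52 and 1.13 FPKM in cKO, against 1.86, 1.596 and 1.71 FPKM in Ctrl. For Ndufaf1, which acts in building the membrane arm, Ndufaf5, an enzyme that modifies NDUFS7 in human cells, and Ndufaf7, a methyltransferase, log2 differences lay between -0.026 and 0.066.

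As a group, 5 of the 8 assembly factors were below 0, with a median of -0.101, against 32 of the 37 structural subunits and a median of -0.26. After removal of the length trend 5 of the 8 assembly factors were below 0, with a median of -0.097, against 24 of the 37 structural subunits and a median of -0.103. The gap of -0.15 between the medians was not tested. Unlike the gap between accessory and core subunits, it changed to -0.0059 after removal of the length trend and -0.034 after quantile normalization. It was -0.14 after TPM rescaling, which can hardly move a gap between medians. Without 1 library the gap was -0.051 (Ctrl replicate 1), -0.053 (cKO replicate 3), -0.071 (cKO replicate 1), -0.103 (cKO replicate 2) or -0.29 (cKO replicate 4).

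Gene length moved with these values. Over all 13057 tested genes, the log2 difference was higher for longer genes (Pearson r = 0.21, Spearman rho = 0.30, across genes, which are not independent replicates). The median length was 922 bases for the tested Nduf genes and 3138 bases for the whole set tested. Among the 37 structural subunits the relation was r = 0.45 and rho = 0.42, and it was r = 0.34 and rho = 0.33 once each library's own length trend had been removed. Level moved with the values too. The log2 difference was lower for more abundant genes, with Spearman rho = -0.12 over all tested genes. It was -0.35 among the tested Nduf genes and -0.13 among the structural subunits. Median levels were 75.1 FPKM for the tested Nduf genes and 5.94 FPKM for all tested genes. The genes of one set of libraries share depth and composition, and these correlations are descriptions.

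The lower values lay mostly among short subunits. The 20 structural subunits under 1000 bases had a median log2 difference of -0.39, and the 17 of 1000 bases or more one of -0.088. Likewise the 2 assembly factors under 1000 bases, Ndufaf8 and Ndufaf2, had a median of -0.49, and the 6 longer ones one of -0.0037, which turned to 0.057 after removal of the length trend, 0.011 after quantile normalization and 0.076 after TPM rescaling. Between 500 and 750 bases, the 12 Nduf genes had a median of -0.34, where all 506 tested genes of that length had -0.17. Between 750 and 1000 bases the 6 Nduf genes had -0.42 and all 501 genes -0.19. In the other classes up to 2500 bases the medians were close to each other. They were -0.13 and -0.13 under 500 bases, -0.109 and -0.12 from 1000 to 1500 bases, and -0.073 and -0.0797 from 1500 to 2500 bases.

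After removal of the length trend, 30 of the 50 Nduf genes were below 0, with a median of -0.061, against 49.5% of all tested genes. At an unadjusted limma p under 0.05, 8 were then lower, against 3.51% of all tested genes, and the lowest adjusted p was 0.549. Ndufa2, Ndufs6, Ndufa1 and Ndufa3 then had log2 differences of -0.82, -0.64, -0.68 and -0.59.

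**Figure D3:**
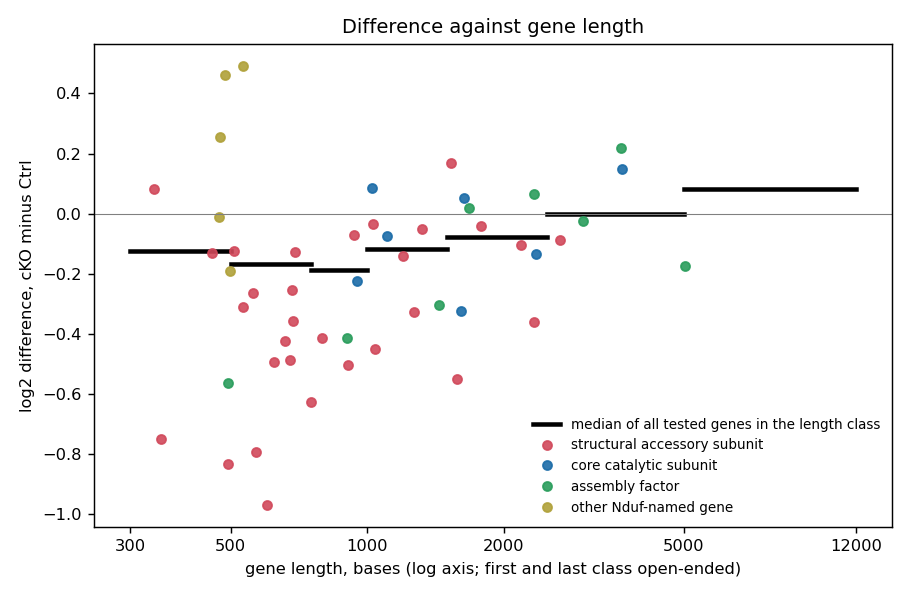
Log2 difference (cKO minus Ctrl, y axis) of the tested Nduf genes against gene length (x axis, log scale), with black bars for the median of all tested genes in each length class. Most accessory subunits between 500 and 1000 bases lie below the bar of their length class, while core subunits and long assembly factors scatter around it.

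By library, the tested Nduf genes had median deviations from the Ctrl mean of -0.20, -0.25, -0.16 and -0.071 in cKO replicates 1 to 4, against 0.11, 0.038 and -0.16 in Ctrl replicates 1 to 3. Ctrl replicate 3 thus lay within the cKO range and cKO replicate 4 within the Ctrl range. Nduf genes took 0.385%, 0.362%, 0.353% and 0.361% of all reads in cKO, against 0.453%, 0.420% and 0.390% in Ctrl. Those shares were separate only by the distance between cKO replicate 1 and Ctrl replicate 3.

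The 1734 other tested genes under 1000 bases, mitochondrial genes left out, had median deviations of -0.079, -0.17, -0.21 and -0.16 in cKO, against 0, -0.024 and 0.022 in Ctrl. The small-intestine markers summed to 23121, 21868, 26042 and 39549 FPKM in cKO, against 36234, 31585 and 38052 FPKM in Ctrl. Of these 12 markers, 5 had the higher mean in cKO. The 6 crypt markers all had the higher mean in cKO, and their sums were 599.6, 556, 361 and 271 FPKM in cKO, against 454, 372 and 407 FPKM in Ctrl. The part of these shifts in the Nduf values was not tested.

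**Figure D4:**
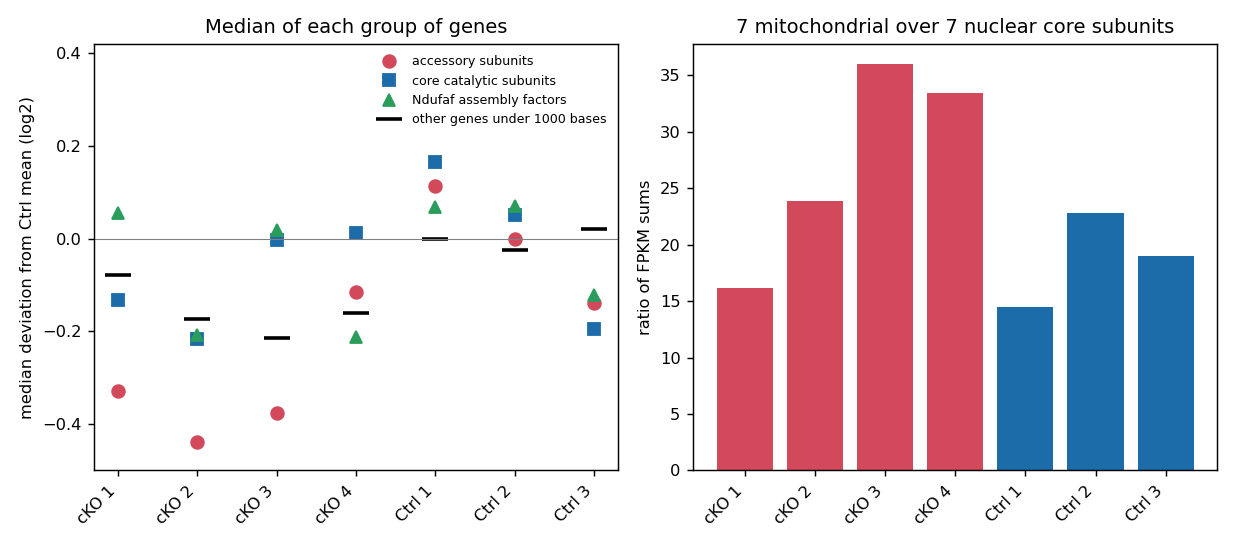
Left, median deviation from the Ctrl mean (log2) of accessory subunits, core subunits, assembly factors and other genes under 1000 bases in each library; right, FPKM sum of the 7 mitochondrially encoded core subunits over that of the 7 nuclear core subunits. Accessory subunits are below core subunits in all 4 cKO libraries and in Ctrl replicates 1 and 2, and the ratio is highest in cKO replicates 3 and 4.

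The mitochondrial genome encodes the other 7 core subunits, which form the proton-pumping membrane arm, and these stood higher on average in cKO. All 7 had a log2 difference above 0, with a median of 0.50, and none passed (lowest limma adjusted p = 0.554). The groups overlapped for all 7. cKO replicate 1 lay below every Ctrl library for ND1, ND2, ND3 and ND4, and inside the Ctrl range for the rest. cKO replicates 3 and 4 lay above every Ctrl library for all but ND4L. Mitochondrial genes took 3.71%, 5.24%, 7.39% and 7.51% of reads in cKO, against 3.88%, 5.32% and 4.19% in Ctrl. At most, ND3 and ND4L reached 28.3 and 81.1 FPKM. ND5 and ND6, given next, had the smallest p. ND5 stood at 1526, 2348, 3049 and 3208 FPKM in cKO, against 1348, 1790 and 1319 FPKM in Ctrl, with cKO replicate 1 inside the Ctrl range. ND6 stood at 1879, 2540, 5247 and 4493 FPKM in cKO, against 2211, 2619 and 1526 FPKM in Ctrl. ND6 lies on the opposite strand, and without a stated strand setting its reads cannot be told apart from those of transcripts across it. The summed FPKM of the 7 mitochondrial over the 7 nuclear core subunits was 16.2, 23.9, 36.0 and 33.5 in cKO, against 14.5, 22.8 and 19.0 in Ctrl, so cKO replicate 1 lay within the Ctrl range and cKO replicate 2 just above it.

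The other respiratory complexes take the electrons onward and make ATP. Of 39 listed nuclear genes of complexes II to V, 33 were below 0, with a median of -0.16, and 5 were lower at an unadjusted limma p under 0.05, where the whole table had 4.73%. With the length trend removed, 25 of the 39 were below 0 and the median was -0.040, and it was -0.030 after quantile normalization and -0.070 after TPM rescaling. By complex, the medians were -0.093 for complex II, which turned to 0.041 after quantile normalization, -0.22 for complex III, -0.19 for complex IV and -0.11 for complex V. No test set these apart from complex I. Uqcr11, a small subunit of complex III, stood at 215, 144, 95.9 and 172 FPKM in cKO, against 317, 280.4 and 343 FPKM in Ctrl, and the ATP synthase subunit gene Atp5k at 131, 90.8, 43.3 and 123 FPKM in cKO, against 156, 221 and 282 FPKM in Ctrl. Both were separate between the groups without passing (limma adjusted p = 0.473 and 0.511). They had the smallest p in complexes III and V, while Cox5b of complex IV had the smallest of the 39 (limma adjusted p = 0.456). All cKO libraries lay below all Ctrl libraries for 8 of the 39 and above them for 0, against 4.51% and 5.62% of all tested genes. The 78 mitochondrial ribosomal protein genes had 57 below 0 and a median of -0.12, which was 0.0026 after removal of the length trend.

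For some Nduf genes, reads were also counted at a copy of the gene. How the alignment divided reads between them was not tested. Ndufs5, an accessory subunit of the intermembrane space side, had 929, 715, 324 and 488 reads in cKO, against 1167, 643 and 437 reads in Ctrl. Ndufs5-ps, a pseudogene on chromosome 16, had 18, 20, 264 and 495 reads in cKO, against 21, 381 and 451 reads in Ctrl. The copy thus held 1.90% and 2.72% of the joint reads in cKO replicates 1 and 2 and 1.77% in Ctrl replicate 1, and between 37.2% and 50.8% in the other 4 libraries. This split ran across the genotypes. Per 1000000 reads of library size, the joint reads came to 52.0 ± 13.6 in cKO (SD, n = 4) and 59.0 ± 3.60 in Ctrl (SD, n = 3; exact 2-sided permutation p = 0.4).

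Ndufa12, a subunit on the surface of the matrix arm, stood at 13.7, 43.8, 12.6 and 39.7 FPKM in cKO, against 63.9, 26.4 and 19.9 FPKM in Ctrl. Its pseudogene Ndufa12-ps on chromosome 5 took 75.1%, 21.8%, 70.8% and 46.1% of the joint reads in cKO, against 22.5%, 56.4% and 73.3% in Ctrl. The division followed neither genotype nor the pattern of Ndufs5-ps. On the same scale the pair together had 59.3 ± 13.1 reads in cKO (SD, n = 4) and 75.6 ± 11.5 reads in Ctrl (SD, n = 3; exact 2-sided permutation p = 0.114). The SE of the log2 difference was 0.56 for Ndufa12 and 0.34 for Ndufs5, the widest among the structural subunits, and single values of both genes are uncertain.

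Ndufab1-ps, listed as protein-coding, held between 11.2% and 18.1% of its joint reads with Ndufab1 in cKO and between 5.08% and 16.7% in Ctrl, lowest in Ctrl replicate 3. It stood at 35.1, 40.4, 28.7 and 52.0 FPKM in cKO, against 44.7, 35.04 and 12.4 FPKM in Ctrl. Its log2 difference of 0.49 (SE 0.41, limma adjusted p = 0.744) was the highest of the 50 and turned to -0.053 without Ctrl replicate 3. The copies Ndufb4c, Ndufs6b and Ndufb4b had few reads. Ndufb4c, at 3.37, 2.94, 3.12 and 3.26 FPKM in cKO and 2.97, 3.07 and 1.02 FPKM in Ctrl, differed mainly through 8 reads in Ctrl replicate 3. Ndufs6b stood at 1.42, 2.002, 1.31 and 1.21 FPKM in cKO, against 0.978, 1.63 and 0.912 FPKM in Ctrl. Ndufb4b stood at 2.15, 2.64, 2.49 and 2.59 FPKM in cKO, against 1.42, 3.03 and 3.41 FPKM in Ctrl. The groups overlapped for both.

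**Figure D5:**
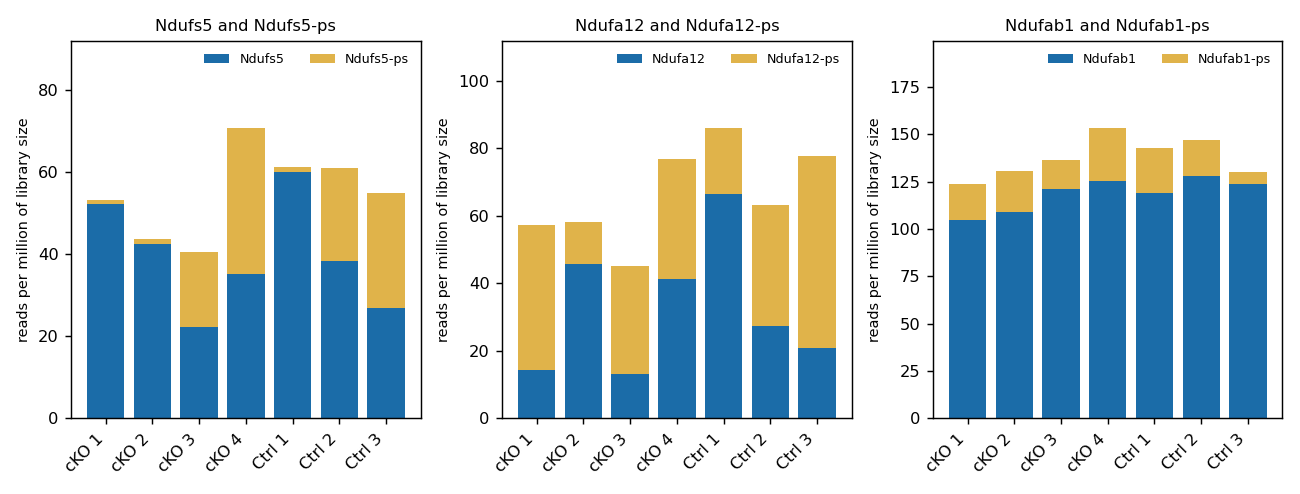
Reads per 1000000 of library size (y axis) in each library for Ndufs5, Ndufa12 and Ndufab1 (blue) with their copies (yellow) stacked on top. The yellow share of the Ndufs5 bar is near 0 in cKO replicates 1 and 2 and Ctrl replicate 1, and the yellow share of the Ndufa12 bar follows another order.

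Ndufa4, the most abundant gene with the name, stood at 389, 373, 323 and 422 FPKM in cKO, against 442, 415 and 429 FPKM in Ctrl. Its cKO replicate 4 reached into the Ctrl range, and its log2 difference was -0.19 (SE 0.15, limma adjusted p = 0.720). In addition, 12 of the 51 genes are overlapped by another gene of at least 0.5 FPKM, 10 of them on the opposite strand. Among the genes whose groups did not overlap these are Ndufa2, Ndufa1 and Ndufb11, whose partners Tmco6, Rnf113a1 and Rbm10 averaged 4.65, 2.76 and 14.95 FPKM. The low copies Ndufb4b and Ndufs6b lie across Dock8 and Slc28a1, at 8.44 and 31.7 FPKM, and their values are uncertain.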

How the data were processed

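The deposited table held 1 FPKM value per gene for each of 7 libraries (4 cKO, 3 Ctrl). HISAT2 was the aligner, per the submitters' processing notes. For the counting program, the strand setting and the annotation, a name is not given in the sources used here. Gene lengths are those of the deposited table. Its chromosome accessions are those of GRCm39, whereas the promoter windows are RefSeq GRCm38.p6.

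Multiplied by gene length, 100% of the 138780 deposited FPKM values above 0 were whole multiples of a library's own step (within 0.01), so reads were recovered. A gene of 1 kb with 3 reads stood at 0.155 to 0.216 FPKM, and such limits cover counting error only. Genes averaging 0.5 FPKM or more were compared on log2(FPKM + 0.5) with limma 3.58.1 in R 4.3.3 (lmFit, eBayes with trend, 2-sided, Benjamini-Hochberg over all tested genes, threshold 0.05, no covariate). The scale understates changes of low genes. Levels and sums were computed in Python 3.11.15, and exact permutation tests of single values in SciPy 1.17.1.

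The test was checked on simulated libraries with 12929 tested genes, where limma found 43 of 90 genes shifted by 1 on the log2 scale and 88 of 95 shifted by 2, and called 7 of 12744 unshifted genes.

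Of the Nduf genes, 1 is counted in the group summaries but not reported here on its own. The Nduf genes, their classes and the other lists were chosen with earlier results of these data known. Per-library values are given for the 2 genes of smallest p in each class, the 3 most and 3 least abundant, the 2 highest differences, and the shortest and longest gene. Ndufs5, Ndufa12, Uqcr11, Atp5k, Chchd4, Aifm1 and the copies were picked with their values in view.

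Alternatives were pseudocounts of 0.1 and 1, other filters, 4 rescalings, removal of each library's loess trend on log2 gene length, voom on recovered reads, protein-coding genes only, other variance models, array weights, a replicate block and leaving out each library.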

Additional observations from a re-analysis of the deposited data

Results flagged for a closer look

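Of the 50 tested Nduf genes, 3 had 1 of the 4 cKO libraries set apart from the other 3 by Dixon's criterion, and in each it was cKO replicate 4. Chance alone flags about 1 in 20 groups, and 3 of 50 is near that share. Ndufb7, a subunit of the distal membrane arm, stood at 199 FPKM in cKO replicate 4 and between 149 and 152 FPKM in the other cKO libraries. Ndufv2, a core subunit with an iron-sulfur cluster, stood at 121 FPKM there and between 89.1 and 94.4 FPKM in the others. Ndufs8, a core subunit next to the ubiquinone site, stood at 109 FPKM there and between 92.9 and 95.5 FPKM in the others. The cause was not tested. The small-intestine marker sum was also highest in that library, at 39549 FPKM. The library size behind its FPKM values was 0.891 times its gene-assigned reads, against 1.075, 1.102 and 0.991 in cKO replicates 1 to 3. A lower ratio gives a higher FPKM for the same share of assigned reads, in every gene of the library alike. Dixon's criterion was applied to FPKM only.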

How the results depend on the processing

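No Nduf gene passed under any of the 22 alternatives (0 called in each), and the log2 differences of 17 of the 20 Nduf genes named by the rule kept their sign in all 22. The rule picks largely by smallest p in these same data, which makes a kept sign likely. The count of all genes called by limma, 4 as reported, was 1 with a pseudocount of 0.1, with no filter, with a mean of at least 1 FPKM and after removal of the length trend, 2 with protein-coding genes only, with voom and after scaling to a sum without abundant genes, and 1 to 7 when a library was left out. The count of Nduf genes lower at an unadjusted p under 0.05, 14 as reported, was 8 after removal of the length trend and 8 to 18 when a library was left out. The gap between accessory and core medians lay between -0.30 and -0.14 without 1 library. This gap and that count were added after seeing the data. Ndufb4b, at -0.011, turned to 0.00075 with FPKM per recovered read, 0.0014 with a pseudocount of 0.1, 0.036 with voom, 0.062 with TPM, 0.067 after scaling to that sum and 0.14 after removal of the length trend, and lay between -0.33 and 0.18 when a library was left out. Ndufab1-ps lay between -0.053 (without Ctrl replicate 3) and 0.85 when a library was left out, and Ndufb1 between -0.0033 (without Ctrl replicate 2) and 0.25. The cause was not tested.

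The replicate numbers 1 to 3 were not used as pairs in the main test. They come from the sample titles, and the deposited columns are numbered otherwise. Same-numbered libraries correlated at 0.12, -0.087 and -0.13 in their deviations. By this measure cKO replicate 1 was closest to Ctrl replicate 1, cKO replicate 2 to Ctrl replicate 3 (0.059) and cKO replicate 3 to Ctrl replicate 2 (0.31). Correlations among so few libraries cannot exclude pairing. With the replicate block, 0 genes were called, the median of the Nduf genes was -0.22 and 15 were lower at an unadjusted p under 0.05. That fit gives no weight to cKO replicate 4.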

Other observations

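Of 14 listed assembly factors of complex I that do not carry the Nduf name, 10 were below 0, with a median log2 difference of -0.092, and none passed in limma. After removal of the length trend 8 were below 0, with a median of -0.040. The groups did not overlap for 3 of the 14, with 2 lower and 1 higher in cKO, against 4.51% and 5.62% of all tested genes. Chchd4, which encodes a factor for protein import into the intermembrane space, stood at 24.7, 16.4, 24.0 and 24.0 FPKM in cKO, against 27.3, 26.5 and 33.3 FPKM in Ctrl. Its log2 difference was -0.39 (SE 0.17, limma adjusted p = 0.554). Aifm1, whose protein binds that of Chchd4 in human cells, stood at 31.3, 30.2, 31.0 and 33.3 FPKM in cKO, against 35.3, 37.2 and 34.8 FPKM in Ctrl, a log2 difference of -0.18 (SE 0.093, limma adjusted p = 0.599). Tmem126b, a membrane-arm assembly factor, was at 9.64, 11.4, 12.7 and 10.6 FPKM in cKO, against 8.95, 8.19 and 8.28 FPKM in Ctrl. All cKO libraries lay above all Ctrl libraries, and the log2 difference was 0.36 (SE 0.12, limma adjusted p = 0.511). Cox14, kept in the list although known for its part in building cytochrome c oxidase, is counted among the 10 below 0. It was at 86.9, 66.1, 72.3 and 84.1 FPKM in cKO, against 112, 109 and 84.6 FPKM in Ctrl.

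Of 10 listed regulators of mitochondrial gene expression, 8 had a log2 difference above 0, with a median of 0.074. These genes had a median length of 8729.5 bases, and after removal of the length trend 5 of the 10 were below 0, with a median of 0.027. Esrra, which encodes the estrogen-related receptor alpha, was 1 of the 2 below 0, at 119, 83.6, 84.4 and 122 FPKM in cKO, against 154, 145 and 141 FPKM in Ctrl. The groups did not overlap, and the log2 difference was -0.54 (SE 0.17, limma adjusted p = 0.511). Gabpa, which encodes an ETS factor, stood at 9.51 ± 0.763 FPKM in cKO (SD, n = 4) and 8.08 ± 1.06 FPKM in Ctrl (SD, n = 3). Nrf1 and Ppargc1a had log2 differences of 0.016 and 0.19 with overlapping groups.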
